A study of Caenorhabditis elegans with 14 samples.

Results

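The 10 genes described here encode proteins of the meiotic chromosome axis and of the synaptonemal complex of the nematode Caenorhabditis elegans. They were chosen by name, as htp-1, htp-2, htp-3, him-3, syp-1, syp-2, syp-3, syp-4, coh-3 and rec-8, and all 10 were found among the 20392 genes of the deposited count table. Their transcripts were measured by RNA sequencing of early embryos from synchronized cultures grown at 20 °C. Wild-type embryos of the strain N2 Bristol gave 3 libraries. The hpl-2 mutant gave 4 libraries and carries hpl-2(tm1489), a deletion in the gene of an HP1 protein that binds chromatin marked by methylation of histone H3 lysine 9. The hpl-2-FFAA group, with the allele hpl-2-FFAA(px112), gave 4 libraries. In the met-2 hpl-2 group, with 3 libraries, tm1489 was combined with met-2(n4256), an allele of an H3K9 methyltransferase gene. Both mutations lie on chromosome III, and the labels give that strain as kept over the balancer hT2, a rearrangement of chromosomes I and III. The sources used here do not say how embryos without the balancer were obtained. The labels' cell type field names yeast cells, while 19870 of the 20392 identifiers were found in the C. elegans annotation. The extraction text also mentions an exposure to temperatures that the treatment label gives as 20 °C in all libraries. Wild type is the control of 3 comparisons, so the fold changes in those share its 3 libraries.

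In meiotic prophase each pair of sister chromatids is organised along a protein axis built on cohesin, and the axes of homologous chromosomes are then joined along their length by the synaptonemal complex. HTP-3, HIM-3, HTP-1 and HTP-2 are axis proteins with a HORMA domain, REC-8 and COH-3 are kleisins, the ring-closing subunits of meiotic cohesin, and the SYP proteins make up the central region of the synaptonemal complex. Meiosis takes place in the germ line of the parent, and early embryos start with transcripts that were loaded into the oocyte.

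Each of the 10 genes was well covered, with at most 1789 counts in a library and, for the lowest gene syp-3, 16.8 to 24.7 CPM. Total counts were 5332725 to 6390870 in the libraries of the first 3 groups and 14313366 to 14840992 in met-2 hpl-2, so that depth and that genotype cannot be told apart. Levels are given as CPM, counts scaled to a common library size with TMM normalisation. Wild type had 95.9 ± 5.46 CPM of the hpl-2 transcript (SD, n = 3) and the hpl-2 mutant 4.41 ± 0.693 (n = 4). It was at 65.3 ± 3.29 CPM in hpl-2-FFAA (n = 4) and at 10.03 ± 1.31 in the met-2 hpl-2 libraries (n = 3). The met-2 transcript fell from 287.7 ± 8.83 CPM in wild type to 29.4 ± 1.81 in met-2 hpl-2. All 20 maternal oocyte markers and all 20 early zygotic markers had counts in each group. Of 10 sperm markers 3 had no count in each group, though not always the same 3. The list summed to at most 10.6 CPM in a library. The 6 vitellogenin genes, markers of the adult intestine, summed to at most 4.91 CPM. Replicates 1 and 2 of hpl-2-FFAA stood apart from replicates 3 and 4, with a chi-square per degree of freedom of 8.51 between replicates 2 and 3 and of 1.11 between replicates 3 and 4. Replicates 1 and 2 of hpl-2-FFAA gave 2.22. Replicate 3 of met-2 hpl-2 also stood apart, with 6.68 against replicate 1 and 3.31 against replicate 2, where replicates 1 and 2 gave 2.82. In the hpl-2 mutant replicate 1 gave 2.13 to 3.66 against the other replicates, which gave 1.16 to 1.53 among themselves.

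Levels of different genes were compared as CPM per kilobase of the gene length in the deposited table. In wild type the 10 genes lay within a narrow range, from 21.1 ± 0.334 CPM per kb for coh-3 to 46.8 ± 5.36 for him-3, where the median of all tested genes was 25.6. The axis gene htp-1 followed at 46.1 ± 1.32 and syp-4 at 44.7 ± 1.43, and each of these overlapped with the gene before it. Next came htp-3 at 38.4 ± 2.19, syp-2 at 37.1 ± 1.75, syp-1 at 36.7 ± 1.18 and htp-2 at 36.3 ± 0.601 CPM per kb, each overlapping with its neighbour in that order. The kleisin gene rec-8 (32.2 ± 2.91), the central region gene syp-3 (24.9 ± 2.10) and coh-3 each lay below the gene before them without overlap. The length of syp-1 in the table, 1567 bases, is shorter than the 3053 bases of its exons in the WBcel235 annotation. That of syp-2 is 879 bases against 1092. The places of both in the order, and overlaps with their neighbours, depend on the gene model. Over all genes in that annotation, 38.8% had a table length within 2% of that of their exons.

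The order was different in met-2 hpl-2. There htp-3 (53.0 ± 2.90 CPM per kb) and syp-1 (52.09 ± 1.046) stood highest, overlapping each other and above all other members. The former leader him-3 was 7th at 36.6 ± 3.88, and coh-3 remained lowest at 13.7 ± 0.605. In the hpl-2 mutant him-3 (63.8 ± 3.22) and syp-4 (61.5 ± 2.58) led with overlapping ranges, and syp-3 was lowest at 23.4 ± 0.873 CPM per kb.

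The genes are spread over 3 chromosomes. On the WBcel235 assembly, chromosome I carries htp-3 (4827072 to 4829791, plus strand), syp-4 (6847511 to 6849923, plus) and syp-3 (8663045 to 8664445, minus). Chromosome IV carries htp-1 (5390189 to 5391557, minus), htp-2 (6419522 to 6420898, plus), him-3 (6977508 to 6978765, plus) and rec-8 (13349122 to 13353193, minus). Chromosome V carries syp-2 (5536487 to 5537717, plus), coh-3 (14457422 to 14460141, plus) and syp-1 (16404274 to 16407701, plus). Exons of syp-1 overlap those of F13A7.14 on the same strand over 517 bases, and those of syp-3 and him-3 overlap mrt-1 and prkl-1 on the opposite strand over 61 and 24 bases. No source used here gives the strand setting of the authors' counting, and the split of reads between these genes is uncertain. The same holds for the paralogs htp-1 and htp-2, and for coh-3 and its paralog coh-4.

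**Figure D1:**
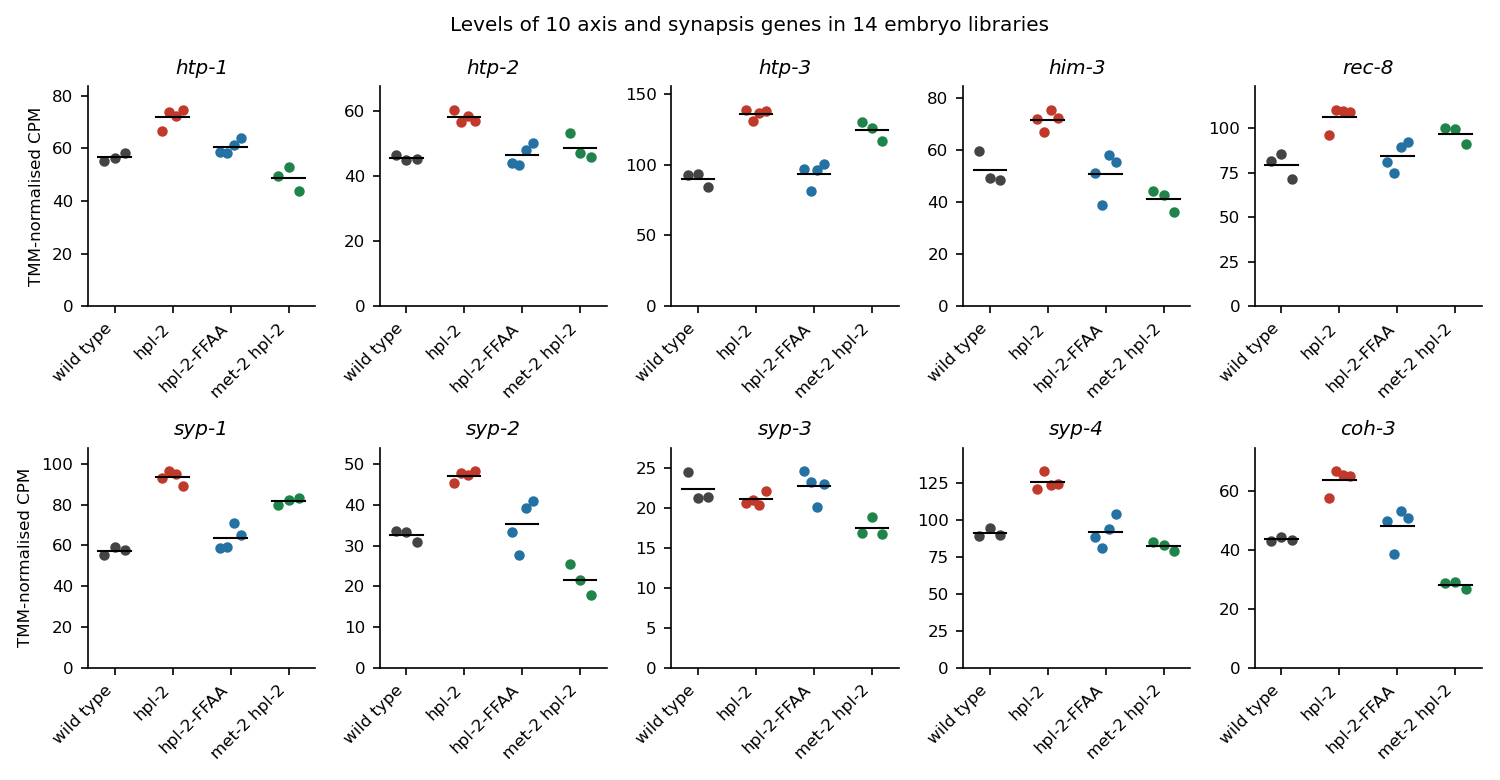
TMM-normalised CPM (vertical axes, from 0) of each of the 10 genes in the 14 libraries, by genotype; points are libraries and lines are group means. All 4 hpl-2 mutant libraries lie above all 3 wild-type libraries for 9 genes, syp-3 being the exception. The share of all tested genes that lie apart in this way was not determined. In met-2 hpl-2 the genes part, with syp-1 at 79.8 to 83.0 CPM against 55.5 to 59.2 in wild type. There coh-3 lies at 26.8 to 29.1 against 43.1 to 44.3.

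The hpl-2 mutant against wild type asks which transcripts depend on this HP1 protein. Transcripts of 9 of the 10 genes rose in the mutant and none fell, with log2 fold changes of 0.34 to 0.70 for the 9. In this comparison 20.2% of the 9498 tested genes were called higher and 21.6% lower, a gene being called at an adjusted p under 0.05 (quasi-likelihood test of edgeR, Benjamini-Hochberg adjustment over all tested genes). The median of the members was 0.453 against 0.00411 for all tested genes. Of the 5740 genes that averaged 20 CPM or more, 26.3% were called higher. Summed over the 10 genes, the level went from 571.5 ± 17.7 CPM in wild type to 794.4 ± 15.6 in the mutant.

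All 4 HORMA domain genes rose in the hpl-2 mutant. Transcripts of htp-3, whose protein recruits the other axis proteins, stood at 92.8, 93.4 and 84.2 CPM in the wild-type libraries and at 138.8, 130.7, 136.2 and 137.6 CPM in the mutant (log2 0.59, SE 0.0652, edgeR adjusted p = 2.95e-06). The groups did not overlap, and the lowest mutant library was well above the highest wild-type library. For him-3, which is needed for pairing and synapsis and is named for the males that appear when X chromosomes missegregate, values were 59.4, 49.4 and 48.6 CPM in wild type and 71.8, 66.7, 75.4 and 72.2 CPM in the mutant (log2 0.45, SE 0.109). Wild-type replicate 1 was the highest of its group here, closer to the mutant than the other replicates.

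The paralogs htp-1 and htp-2, which act together in the release of cohesion and of which htp-1 also guards against synapsis of the wrong partners, rose by nearly the same amount. Levels of htp-1 were 55.1, 56.3 and 58.3 CPM in wild type and 66.6, 73.8, 72.2 and 74.7 in the mutant (log2 0.34, SE 0.0697). Levels of htp-2 were 46.3, 44.8 and 45.3 CPM in wild type and 60.4, 56.7, 58.4 and 56.8 in the mutant (log2 0.35, SE 0.0711). Neither pair of groups overlapped, and the share of htp-1 in the counts of both was 55.4% ± 0.987 in wild type and 55.3% ± 2.011 in the mutant.

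The central region genes were not uniform. The largest rise of the 10 was that of syp-1, from 55.5, 59.2 and 57.7 CPM in wild type to 93.2, 96.4, 94.8 and 89.0 in the mutant (log2 0.70, SE 0.0629, edgeR adjusted p = 2.86e-07). The overlapping gene F13A7.14 had a log2 fold change of -0.06 (SE 0.0550) and was not called. Levels of syp-2 went from 33.6, 33.4 and 30.8 CPM to 45.4, 47.9, 47.4 and 48.4 (log2 0.54, SE 0.121). For syp-4 they went from 89.4, 94.7 and 89.99 CPM to 121.0, 133.2, 123.9 and 124.7 (log2 0.46, SE 0.0667). In all of these the groups were apart.

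The fourth central region gene, syp-3, stood at 24.6, 21.2 and 21.4 CPM in wild type and at 20.7, 21.1, 20.4 and 22.2 in the mutant. The groups overlapped, the log2 fold change was -0.09 with a 95% interval of -0.28 to 0.10 (from the SE), and the edgeR adjusted p was 0.489. That interval lies below the log2 fold change of each of the other 9 genes. Its opposite-strand neighbour mrt-1 was called higher (log2 0.20, SE 0.0647).

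Both kleisin genes rose. Levels of coh-3 were 43.1, 44.3 and 43.2 CPM in wild type and 57.4, 66.7, 65.3 and 65.0 in the mutant (log2 0.55, SE 0.0876, edgeR adjusted p = 0.000108). Its paralog coh-4, with which it acts redundantly, went from 29.3 ± 2.12 to 37.3 ± 3.21 CPM (log2 0.35, SE 0.0904). Levels of rec-8, whose product holds sister chromatids together through meiosis, went from 81.4, 85.5 and 71.5 CPM to 96.0, 110.3, 109.8 and 108.7 (log2 0.42, SE 0.0767). Replicate 1 of the mutant was the lowest of its group for both members and the groups remained apart.

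**Figure D2:**
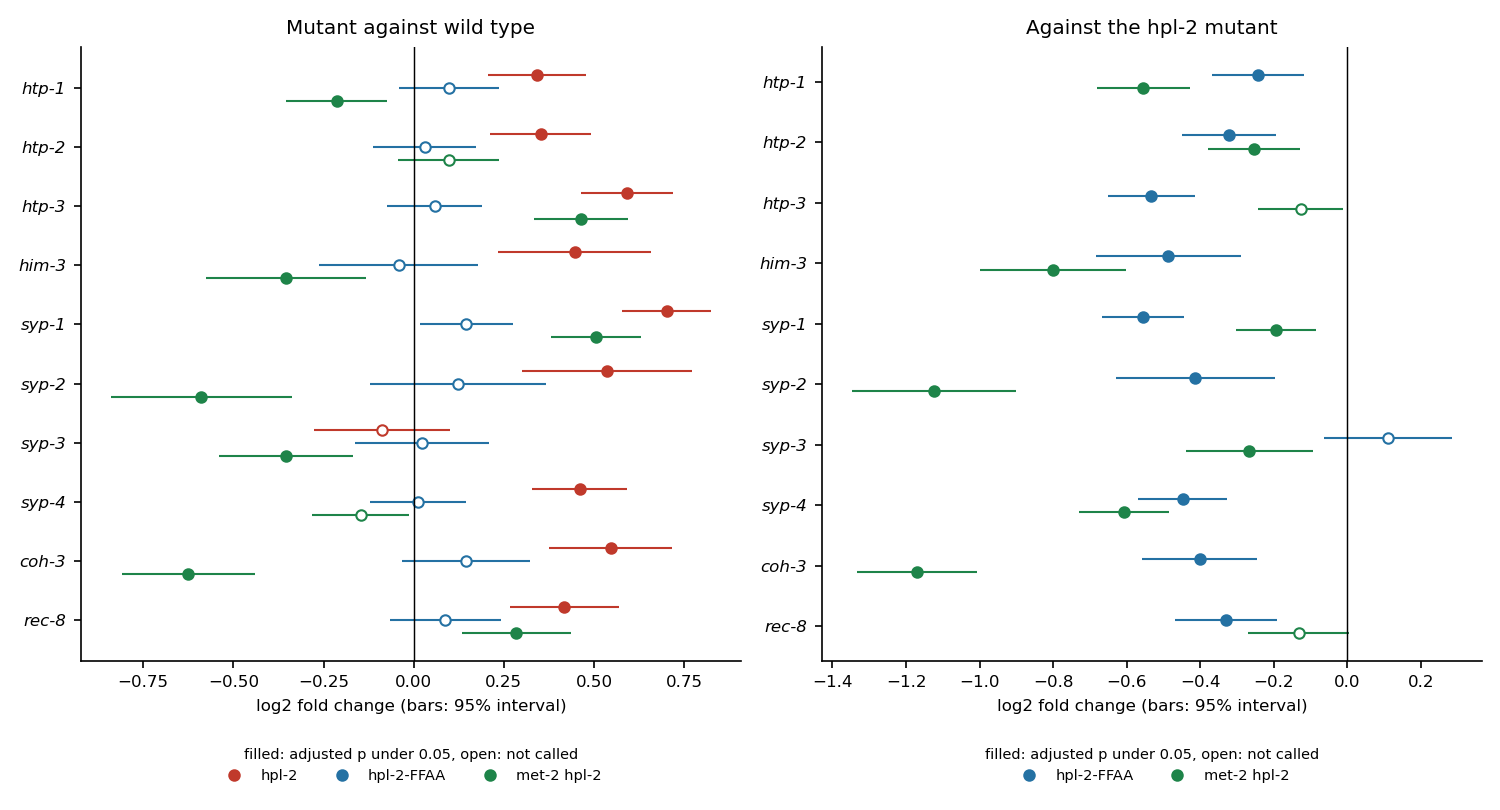
Log2 fold changes of the 10 genes (horizontal axes) with bars for the 95% interval; filled points passed an adjusted p of 0.05 in edgeR and open points did not. The left panel sets each mutant against wild type and the right panel uses the hpl-2 mutant as the reference, where coh-3 (-1.17) and syp-2 (-1.12) lie lowest.

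Other genes of meiosis rose less uniformly in the hpl-2 mutant. Of 66 further meiotic genes in 6 lists, 30 were called higher and 6 lower, with a median log2 of 0.18. Of all tested genes 20.2% were called higher and 21.6% lower. The small counts of single lists were not tested against these shares. Of 8 other synapsis genes 6 were called higher and none lower, including syp-5 (46.3 ± 3.19 to 61.2 ± 4.84 CPM, log2 0.40, SE 0.0815) and syp-6 (126.0 ± 2.22 to 162.6 ± 7.69 CPM, log2 0.37, SE 0.0531), central region genes that are close in function to the listed syp genes. Genes of chromosome pairing and its attachment to the nuclear envelope had 6 higher and 1 lower of 10, led by zim-2 (log2 0.60, SE 0.131) and zim-1 (0.55, SE 0.0791), zinc finger genes of pairing centers. The lower gene there was the phosphatase gene pph-4.1 (-0.20, SE 0.0727). Genes of meiotic double-strand breaks had 6 higher and none lower of 9, with dsb-2 at 0.58 (SE 0.0775). Recombination and repair genes had 7 higher of 18, and crossover genes 3 higher of 7, with none lower in either list.

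Cohesin genes other than the members had 2 called higher and 5 lower of 14, where 20.2% and 21.6% of all tested genes were. Among the lower ones were scc-3, a subunit shared by mitotic and meiotic cohesin (388.1 to 317.4 CPM, log2 -0.29, SE 0.0585), and the kleisin gene coh-1 (-0.27, SE 0.0640). Within this mutant the kleisin genes were called in both directions, rec-8, coh-3 and coh-4 higher, and coh-1 and the mitotic kleisin gene scc-1 (log2 -0.12, SE 0.0473) lower.

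Maternal and zygotic markers moved in the same libraries. Of 20 maternal oocyte markers 11 were called higher and none lower in the hpl-2 mutant, and their sum was 11950 to 13650 CPM against 10340 to 10630 in wild type. Of the 20 early zygotic markers 18 were tested, 8 were called lower and none higher, and their sum was 1070 to 1144 CPM against 1320 to 1353. Over all tested genes 20.2% were called higher and 21.6% lower. None of the 20 maternal and 20 zygotic markers was at 0 in either group. Their part in the rise of the 9 genes was not tested. In whole embryos, fewer cells of a type and less RNA per cell cannot be told apart.

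**Figure D3:**
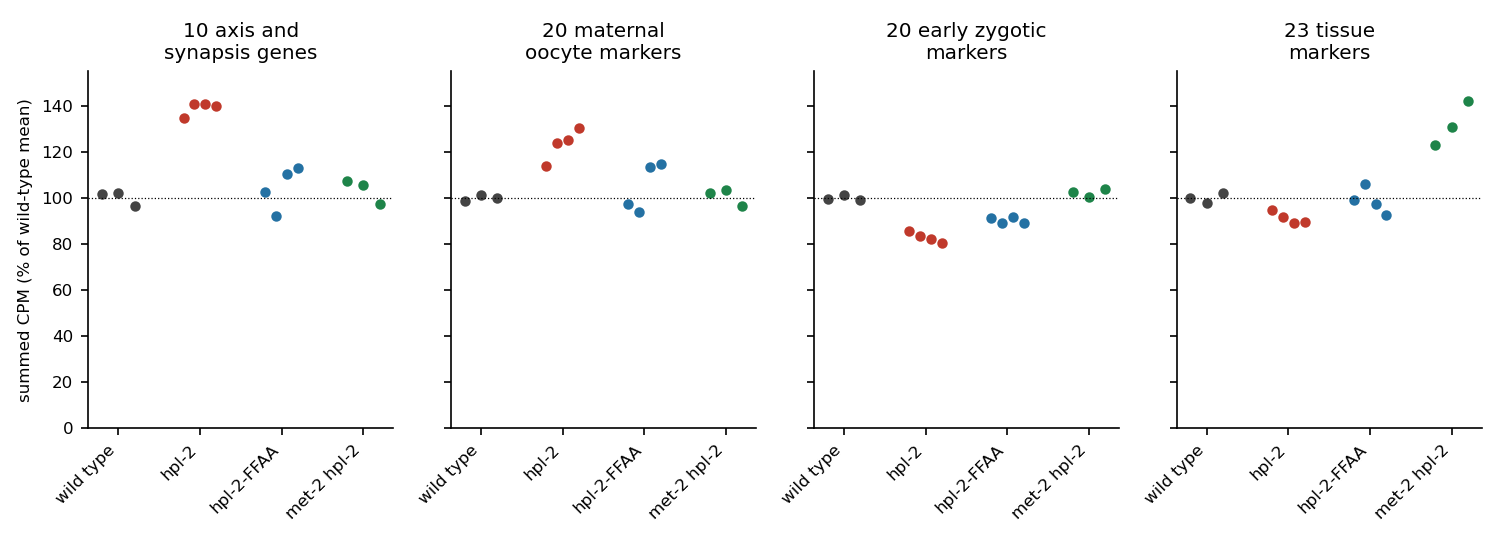
Summed CPM of the 10 genes and of 3 marker lists in each of the 14 libraries, as a percentage of the wild-type mean (vertical axis, dotted line at 100); points are libraries. The 10 genes stand at 134.9% to 140.6% in the hpl-2 mutant and maternal markers at 114.0% to 130.3%, while tissue markers stand at 123.0% to 142.1% in met-2 hpl-2.

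The hpl-2-FFAA group asks how far the px112 allele resembles the deletion. None of the 10 genes was called in hpl-2-FFAA against wild type by edgeR or by DESeq2, where 0.547% of all tested genes were called higher and 0.232% lower by edgeR. At an unadjusted p under 0.05 in edgeR, 1 member passed, syp-1, as did 9.82% of all tested genes. The median log2 fold change of the members was 0.0731, from -0.04 for him-3 to 0.15 for syp-1. Levels of syp-1 were 59.0, 59.1, 71.1 and 64.9 CPM, with replicates 1 and 2 within the wild-type range of 55.5 to 59.2 and replicates 3 and 4 above it. Its log2 fold change of 0.15 had a 95% interval of 0.02 to 0.27. For coh-3 the interval ran from -0.03 to 0.32 and for syp-2 from -0.12 to 0.37, so differences within these ranges were not excluded. The libraries of htp-1 lay just above wild type without overlap, at 58.38 to 63.91 CPM against at most 58.34, and the difference was not called (log2 0.10, SE 0.0711).

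The spread within hpl-2-FFAA was wider than in the other groups for several members. The highest library was 1.504 times the lowest for him-3, 1.48 times for syp-2 and 1.38 times for coh-3, against 1.22, 1.09 and 1.03 times in wild type. In met-2 hpl-2, with 3 libraries, these ratios were 1.225, 1.435 and 1.086. For htp-1 and htp-2 the ratio was widest in met-2 hpl-2, at 1.212 and 1.166. In replicates 1 to 4 of hpl-2-FFAA, levels of him-3 were 51.02, 38.7, 58.2 and 55.3 CPM. Those of coh-3 were 49.7, 38.5, 53.1 and 50.7 CPM. Replicate 2 was the lowest library for 8 of the 10 genes and replicate 4 the highest for 6. The summed level of the 10 genes was 526.0 CPM in replicate 2 and 646.4 CPM in replicate 4, and the summed maternal markers were 9825 and 12000 CPM in the same libraries.

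With replicates 1 and 2 alone the median of the members was -0.0222 and none was called. With replicates 3 and 4 alone the median was 0.136 and syp-1 was called higher (log2 0.24, edgeR adjusted p = 0.0331). Of all genes tested with these libraries 8.44% were called, 3.42% higher and 5.02% lower, against 0.505% with replicates 1 and 2. With 10 members, 1 call is not a result apart from that background. Among the 66 other meiotic genes none was called in hpl-2-FFAA with all 4 libraries. With replicates 3 and 4 alone 5 were called higher and 1 lower. The higher calls were above the 3.42% of all tested genes called higher, and this difference was not tested.

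The direct test between both hpl-2 alleles called 9 of the 10 genes lower in hpl-2-FFAA than in the hpl-2 mutant, against a background of 16.5% of tested genes called lower and 18.7% called higher. The members' median log2 difference was -0.407, against -0.0018 for all tested genes. The differences ran from -0.56 (SE 0.0571, edgeR adjusted p = 3.21e-06) for syp-1 to -0.24 (SE 0.0639) for htp-1. Levels of htp-3 were 96.8, 81.1, 96.3 and 100.6 CPM in hpl-2-FFAA, all below the lowest hpl-2 mutant library at 130.7. Libraries did not overlap for any of the 9, and the share of all tested genes without overlap was not determined. The tenth gene, syp-3, stood at 24.7, 23.2, 20.2 and 22.99 CPM in hpl-2-FFAA, overlapping the hpl-2 mutant (log2 difference 0.11, 95% interval -0.06 to 0.28). With hpl-2-FFAA replicates 3 and 4 alone 7 genes were called lower, as htp-1 (log2 -0.19, edgeR adjusted p = 0.0928) and syp-2 (-0.23, edgeR adjusted p = 0.132) lost their calls, and the median was -0.266. With replicates 1 and 2 alone the 9 calls were made and the median was -0.544. Of all tested genes 6.69% were called lower with replicates 3 and 4 and 20% with replicates 1 and 2.

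**Figure D4:**
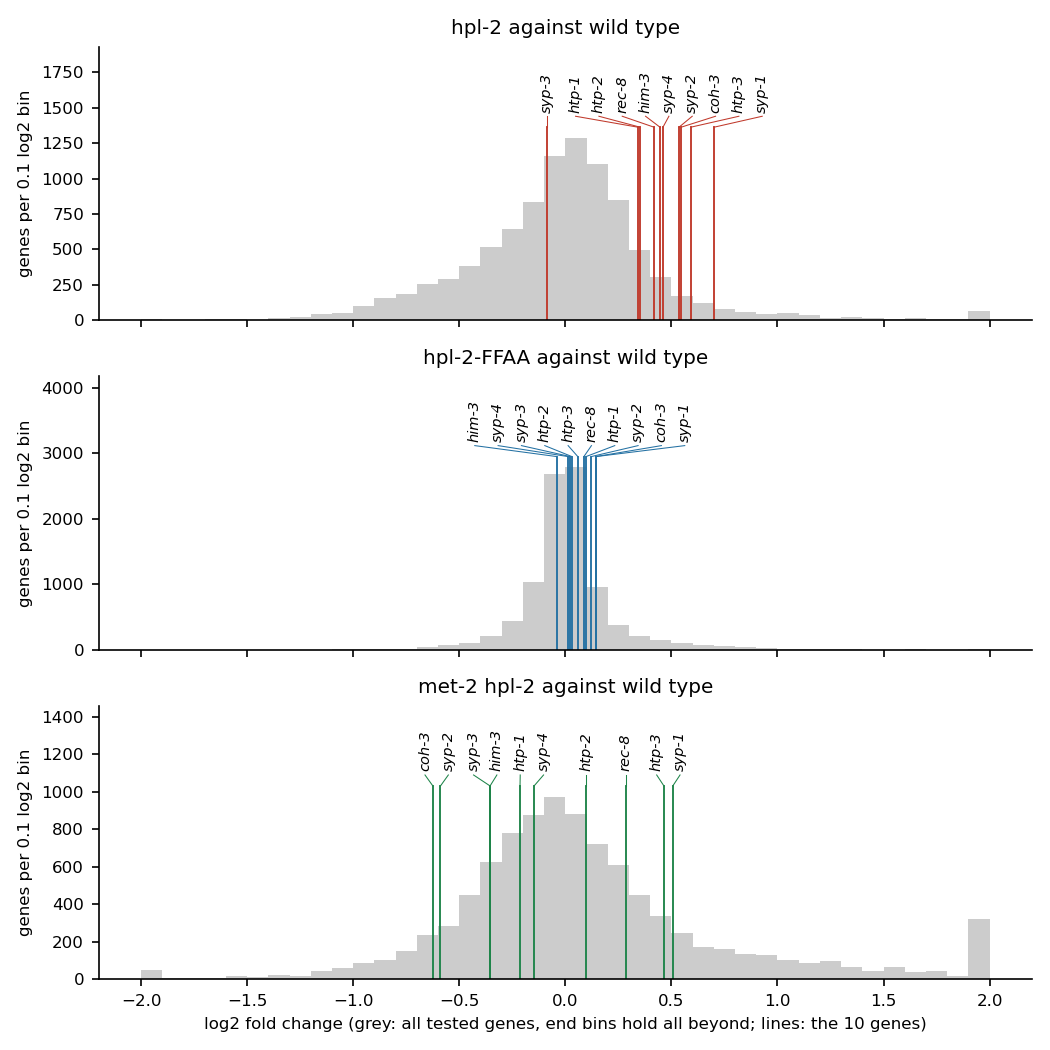
Number of tested genes per bin of 0.1 in log2 fold change (grey bars, 9498 genes, horizontal axis in log2, genes beyond the axis in the end bins) for each mutant against wild type, with the 10 genes as coloured lines. They lie right of the centre in the hpl-2 mutant apart from syp-3, near the centre in hpl-2-FFAA, and from -0.62 (coh-3) to 0.51 (syp-1) in met-2 hpl-2.

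The met-2 hpl-2 embryos address the loss of H3K9 methyltransferase MET-2 together with HPL-2. Here the 10 genes moved in both directions. Against wild type 3 were called higher, namely htp-3, syp-1 and rec-8, and 5 lower, namely coh-3, syp-2, syp-3, him-3 and htp-1. In this comparison 28.7% of all tested genes were called higher and 29.4% lower, and among genes averaging 20 CPM or more 25.3% and 37.65%, so calls in either direction were common and the members' counts are not a result apart from it. With scaling by library size alone the split over all tested genes was 22.9% higher and 37.8% lower, and that of the members 3 higher and 6 lower. The members' median was -0.18, against -0.00363 for all tested genes. The summed level of the 10 genes was 591.2 ± 30.3 CPM, overlapping wild type (551.1 to 582.2 CPM).

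The axis genes split. Levels of htp-3 were 130.1, 126.1 and 116.9 CPM, all above wild type (log2 0.46, SE 0.0664, edgeR adjusted p = 1.08e-05). Levels of him-3 were 44.2, 42.8 and 36.0 CPM, all below wild type at 48.6 to 59.4 (log2 -0.35, SE 0.113, edgeR adjusted p = 0.0120). The call of him-3 was lost without wild-type replicate 1 (edgeR adjusted p = 0.0884), the highest of its group, and without met-2 hpl-2 replicate 3 (0.0608), the lowest of its own.

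Of the paralogs htp-1 and htp-2 only htp-1 was called in met-2 hpl-2 against wild type. Levels of htp-1 were 49.6, 53.1 and 43.8 CPM, all below the wild-type libraries (log2 -0.21, SE 0.0715, edgeR adjusted p = 0.0160). Levels of htp-2 were 53.3, 47.0 and 45.7 CPM and overlapped wild type (log2 0.10, 95% interval -0.04 to 0.24). The call of htp-1 was lost without wild-type replicate 3 (edgeR adjusted p = 0.0592) and without met-2 hpl-2 replicate 3 (0.0889). With the counts of both genes summed as a single feature the log2 fold change was -0.07 (edgeR adjusted p = 0.327). The share of htp-1 in these counts was 48.2%, 53.0% and 48.9% in the met-2 hpl-2 libraries, with Wilson 95% intervals from 45.6% to 55.7%. It was 54.4%, 55.7% and 56.3% in wild type, so all met-2 hpl-2 libraries were lower. An exact two-sided permutation test gave p = 0.1, the smallest that 3 against 3 libraries allow. After Benjamini-Hochberg adjustment over the 10 comparisons of shares that permutation p was 0.245. A difference between the paralogs was thus not established.

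Among the central region genes syp-1 rose and syp-2 and syp-3 fell. Levels of syp-1 were 79.8, 82.1 and 83.0 CPM, all above wild type (log2 0.51, SE 0.0635, edgeR adjusted p = 2.46e-06). The gene overlapping it, F13A7.14, was also called higher, by a log2 of 0.19 (SE 0.0544). Levels of syp-2 were 25.6, 21.6 and 17.8 CPM, all below wild type at 30.8 to 33.6 (log2 -0.59, SE 0.128, edgeR adjusted p = 0.000734). The highest of these libraries was 1.44 times the lowest. Levels of syp-3 were 16.9, 18.9 and 16.8 CPM, all below wild type at 21.2 to 24.6 (log2 -0.36, SE 0.0948). The opposite-strand neighbour of syp-3, mrt-1, was called lower too (log2 -0.32, SE 0.0662).

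Levels of syp-4 were 85.5, 83.1 and 79.0 CPM, all below wild type at 89.4 to 94.7, and the difference was not called (log2 -0.15, SE 0.0691, edgeR adjusted p = 0.0757). It was called lower with scaling by library size alone, with no low-count filter, with only the groups compared and with the deeper libraries thinned (edgeR adjusted p = 0.00849 to 0.0362). The 4 central region genes had levels of 142.1% (syp-1), 90.3% (syp-4), 78.1% (syp-3) and 66.5% (syp-2) of wild type, while their sum was 203.3 ± 5.98 CPM against 203.8 ± 4.34.

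The kleisin genes moved in opposite directions. Levels of coh-3 were 28.8, 29.1 and 26.8 CPM, all below wild type at 43.1 to 44.3 (log2 -0.62, SE 0.0935, edgeR adjusted p = 1.81e-05). Levels of rec-8 were 99.7, 99.7 and 91.0 CPM, all above wild type at 71.5 to 85.5 (log2 0.29, SE 0.0776, edgeR adjusted p = 0.00425). The paralog of coh-3 moved the other way from it. Levels of coh-4 were 33.8, 34.6 and 34.7 CPM against 30.4, 30.7 and 26.9 in wild type (log2 0.23, SE 0.0896, edgeR adjusted p = 0.0341).

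The share of coh-3 in the counts of coh-3 and coh-4 was 46.0%, 45.7% and 43.5% in met-2 hpl-2, with Wilson 95% intervals between 40.3% and 49.3%. In the other 3 groups it was 57.7% to 65.8% in every library. The mean difference was -14.7 percentage points against wild type (exact permutation p = 0.1, the smallest possible) and -17.95 points against the hpl-2 mutant (exact permutation p = 0.0571, also the smallest possible). Over the 10 comparisons of shares tested in both paralog pairs, the adjusted p of these was 0.245 after Benjamini-Hochberg adjustment of the exact permutation values. Exons of coh-4 overlap those of Y45G5AM.7 on the same strand over 327 bases, and that gene was not called in met-2 hpl-2 against wild type (log2 -0.06, SE 0.0654). With the counts of coh-3 and coh-4 summed as a single feature the log2 fold change was smaller, at -0.22 (SE 0.0759, edgeR adjusted p = 0.0198).

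**Figure D5:**
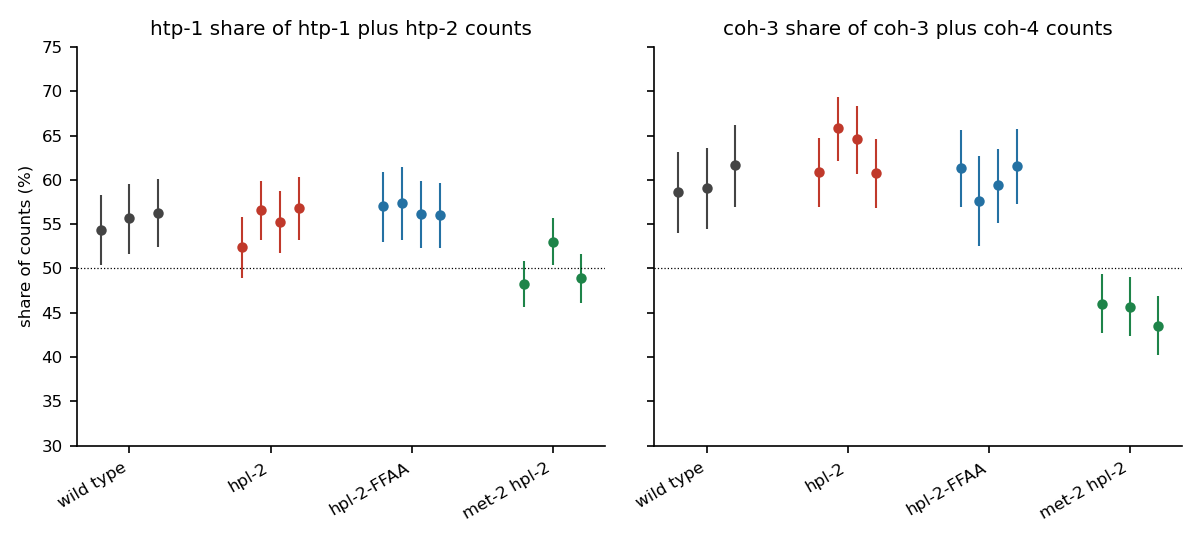
Share of htp-1 in the counts of htp-1 and htp-2 (left) and of coh-3 in the counts of coh-3 and coh-4 (right) in each of the 14 libraries, in percent on an axis from 30 to 75; bars are Wilson 95% intervals, which cover counting error only, and the dotted line marks 50. The coh-3 share lies at 43.5% to 46.0% in met-2 hpl-2 and at 57.7% or more in all other libraries.

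Against the hpl-2 mutant, which carries the same tm1489 allele, met-2 hpl-2 embryos had 8 of the 10 genes called lower and none higher. In this comparison 35.2% of all tested genes were called lower and 36% higher, and among genes of at least 20 CPM 45.8% were called lower. The members' median was -0.412 and that of all tested genes 0.0146. The largest differences were those of coh-3 (log2 -1.17, SE 0.0833, edgeR adjusted p = 1.25e-09) and syp-2 (-1.12, SE 0.114, edgeR adjusted p = 8.80e-08), whose levels were 44.4% and 45.8% of those in the hpl-2 mutant. Only 2.26% and 2.46% of tested genes had lower log2 differences than these genes. They were followed by him-3 (-0.80, SE 0.101), syp-4 (-0.61, SE 0.0625) and htp-1 (-0.56, SE 0.0645). Smaller differences were called for syp-3 (-0.27, SE 0.0882), htp-2 (-0.25, SE 0.0640) and syp-1 (-0.19, SE 0.0555). For htp-3 the difference was -0.13 (95% interval -0.24 to -0.01, edgeR adjusted p = 0.0627) and for rec-8 -0.13 (95% interval -0.27 to 0.00379, edgeR adjusted p = 0.0959). Both were called lower with library size alone, with no low-count filter and with only the groups compared.

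Placed side by side, the log2 fold changes against wild type were 0.55 in the hpl-2 mutant and -0.62 in met-2 hpl-2 for coh-3, 0.54 and -0.59 for syp-2, and 0.45 and -0.35 for him-3. For syp-1 they were 0.70 and 0.51, for htp-3 0.59 and 0.46, and for rec-8 0.42 and 0.29. The members that kept a higher level in both mutants were 1 HORMA domain gene, 1 central region gene and 1 kleisin gene. Both comparisons use the same 3 wild-type libraries.

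The members that were lower in met-2 hpl-2 tended to be shorter genes, with the exception of coh-3. Across the 10 genes the log2 fold change against wild type and the length had a Spearman correlation of 0.527, given as a description over genes that share libraries. Across the 5740 genes averaging 20 CPM or more the same correlation was 0.159, and genes under 1000 bases had a median of -0.11 where those over 2000 bases had -0.006. The 3 members on chromosome I, which hT2 rearranges, were htp-3 (0.46), syp-4 (-0.15) and syp-3 (-0.36), and all tested genes of that chromosome had a median of -0.0386. The part of length or of the balancer in these values was not tested.

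Other meiotic genes were lower more often than higher in met-2 hpl-2 against wild type, with 37 lower and 11 higher of 66 and a median log2 of -0.212. Of all tested genes 29.4% were called lower and 28.7% higher. With scaling by library size alone the 66 genes had 42 lower and 6 higher, where 37.8% of all tested genes were called lower and 22.9% higher. Without replicate 3 the 66 genes had 30 lower and 8 higher, where 26% of all tested genes were called lower and 25.2% higher. Recombination and repair genes had 13 lower and none higher of 18, including brc-2, a loader of the recombinase RAD-51 (30.7 to 16.1 CPM, log2 -0.93, SE 0.104). Crossover genes had 4 lower and 1 higher of 7. Genes of double-strand breaks had 5 lower and 1 higher of 9, with him-5 falling from 9.56 to 2.74 CPM (log2 -1.80, SE 0.170), while dsb-2 rose (0.46, SE 0.0773). Other synapsis genes had 4 lower and 2 higher of 8, among them hal-3, which is needed for assembly of the synaptonemal complex (log2 -0.92, SE 0.148), and syp-5 (-0.22, SE 0.0838), while syp-6 was not called (-0.08, SE 0.0549). Pairing and nuclear envelope genes had 3 lower and 2 higher of 10, with the polo-like kinase gene plk-2 higher (0.39, SE 0.0826). The counts of that list are not a result apart from the shares of all tested genes. Other cohesin genes had 8 lower and 5 higher of 14, with coh-1 higher (0.31, SE 0.0646).

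Most tissue markers rose in met-2 hpl-2. Of 23 markers of muscle, intestine, neurons, epidermis and pharynx 18 were tested, 15 were called higher and 2 lower. Over all tested genes 28.7% were called higher and 29.4% lower in this comparison. The sum of the 23 tissue markers was 1057 to 1221 CPM against 838.4 to 878.9 in wild type. Of the 23, 2 were at 0 in wild type and none in the deeper met-2 hpl-2 libraries. The muscle myosin gene unc-54 stood at 29.7 CPM against 3.96 in wild type. Neuronal markers were mixed, with unc-119 at 41.2 CPM against 54.8 and unc-104 at 23.7 against 32.1, while snb-1 was at 261.5 against 187.6. The 20 maternal markers summed to 10100 to 10850 CPM, overlapping wild type, with 4 called higher and 5 lower. Of 18 tested early zygotic markers 9 were called lower and 1 higher, with a median log2 of -0.213, while the sum of all 20 was 1338 to 1387 CPM against 1320 to 1353 in wild type. The largest value in that sum was vet-6, at 767.0 CPM against 623.6 in wild type. The replicate with the highest tissue marker sum, replicate 3, had the lowest level for 9 of the 10 members, syp-1 being the exception. Without it 6 of the 10 genes were called, 3 higher and 3 lower, with a median of -0.129. In that fit 25.2% of all tested genes were called higher and 26% lower. The part of these markers in the members' values was not tested.

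Across the 14 libraries the members varied together in part. The 45 pairs of members had a median Pearson correlation of 0.581 in log2 CPM, from -0.543 between syp-1 and syp-3 to 0.971 between syp-2 and coh-3. After subtraction of group means the median was 0.56, with 39 of 45 pairs above 0. The closest partners of the genes that were higher in both mutants were each other, with 0.938 between htp-3 and syp-1 and 0.922 between rec-8 and htp-3. These genes were grouped by differences between genotypes that also enter these correlations, so their likeness is not a separate result. The gene syp-3 had no member above 0.556. These values describe 14 libraries, of which those of a group share genotype and similar depth, and carry no test.

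Outside the list, and among genes averaging 20 CPM or more, C05C10.3 was most like the mean profile of the 10 genes over the 14 libraries (Pearson r = 0.985). Its level was 87.6 ± 3.66 CPM in wild type and 128.8 ± 4.35 in the hpl-2 mutant. The hpl-2-FFAA libraries had 93.05 ± 13.4 CPM and those of met-2 hpl-2 81.8 ± 8.96. It was followed by C37C3.9 (0.983), prg-1 (0.981), which encodes a Piwi protein of the germ line, dsb-1 (0.980), needed for meiotic double-strand breaks, and asb-1 (0.980), which encodes a subunit of the mitochondrial ATP synthase.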

How the data were processed

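The authors deposited a single table with the raw count of each gene in each of 14 libraries and the gene's length in bases. All 14 were used. The authors trimmed reads with Trimmomatic 0.39 and worked on build ce10, according to the submitters' processing notes. For the aligner, the counter, its strand setting and the gene models, nothing is given in the sources used here. Symbols and positions came from the WBcel235 annotation, matched by identifier, and positions were not converted to ce10.

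Differences were computed from the counts in R 4.3.3 with edgeR 4.0.16 (low-count filter, TMM scaling, quasi-likelihood test), in a single fit of all 14 libraries and 4 groups. The filter kept 9498 genes, the common dispersion had a square root of 5.34%, and p-values were adjusted by Benjamini-Hochberg over all tested genes. The fit was tested on simulated data with 200 changed genes. The SE was taken as |log2 fold change| over the root of the F statistic. DESeq2 1.42.0 was an alternative, beside other scalings, filters, sets of libraries, thinning of met-2 hpl-2 counts to 5878804 per library, and summed paralogs.

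The members and lists were chosen with earlier results of these data known. Of other meiotic genes, each comparison with wild type names the 3 highest and 3 lowest called fold changes among genes of 5 CPM or more in whichever group was higher, where libraries did not overlap. The genes coh-4, syp-5 and syp-6, and the 5 genes most like the members' mean profile, were named in any case. Overlapping genes, scc-1, unc-54, unc-119, unc-104, snb-1 and vet-6 were named after their values were seen. Nothing in the labels states that replicates came from separate cultures, so p-values reflect only the spread among these samples, and that spread may be technical. Between replicates of a group the chi-square per degree of freedom over genes was at least 1.11, and each library counted as a sample. Intervals of shares cover counting error only.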

Additional observations from a re-analysis of the deposited data

Results flagged for a closer look

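In the hpl-2 mutant, replicate 1 lay apart from the others for rec-8, at 96.0 CPM against 108.7 to 110.3 CPM. Its gap to the nearest library was 0.892 of the group's range, above the limit of 0.829 of Dixon's test for 4 values. Of 20 groups of 4 libraries tested (10 genes in each of 2 genotypes), this was the only 1 past the limit, and chance flags about 1 in 20 groups. The rise of rec-8 against wild type was called with and without that library.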

How the results depend on the processing

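Of 76 alternative counts of called members over the 5 comparisons, 75 stayed within 1.5 times the reported count. The exception was hpl-2-FFAA against wild type, where replicates 3 and 4 alone gave 1 called gene in place of 0. Leaving out each library in turn gave 9 called genes in the hpl-2 mutant and 0 in hpl-2-FFAA throughout, and 6 to 8 in met-2 hpl-2 against wild type. Against the hpl-2 mutant it gave 9 in hpl-2-FFAA and 8 to 9 in met-2 hpl-2. Of all genes tested in these fits against wild type, 32.2% to 42.5% were called in the hpl-2 mutant. The share was 50.9% to 56.5% in met-2 hpl-2. Against the hpl-2 mutant 26.5% to 37% of tested genes were called in hpl-2-FFAA and 65.7% to 70% in met-2 hpl-2. The members' counts in met-2 hpl-2 are thus not a result apart from that background. A replicate block by the numbers in the labels gave 9, 0 and 8 called genes against wild type and 9 and 8 against the hpl-2 mutant, so it moved no count. Same-numbered libraries correlated between -0.22 and 0.191 after subtraction of group means, so the numbers were not taken as pairing. Of the 34 called values of single members none changed sign under any alternative, and 5 lost the call under at least 1.

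Signs changed only for values that were not called. In hpl-2-FFAA against wild type, replicates 1 and 2 alone gave -0.058 for htp-2, -0.016 for htp-3, -0.088 for syp-2, -0.107 for syp-4 and -0.028 for rec-8, and replicates 3 and 4 alone gave 0.111 for him-3 and -0.055 for syp-3. Leaving out each library in turn gave -0.012 to 0.061 for htp-2, -0.111 to 0.064 for him-3, -0.023 to 0.094 for syp-3 and -0.058 to 0.065 for syp-4. The replicate block gave -0.019 for syp-4. In met-2 hpl-2 against wild type htp-2 went to -0.066 when summed with htp-1. The cause of these shifts was not tested. The call of syp-3 lower in met-2 hpl-2 than in the hpl-2 mutant was lost with thinned libraries (log2 -0.22 against -0.27, edgeR adjusted p = 0.0671). The lowest member, syp-3, had at most 259 counts in a library.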
